A study of Mus musculus with 7 samples.

Results

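The genes of sphingolipid synthesis and turnover compared here are 34 enzymes of the core pathway, taken from the serine palmitoyltransferase step to the cleavage of sphingosine 1-phosphate. They were listed with earlier results of the same comparison known, so their differences between the groups are given as a description, without a test of the list. Whether a gene passed the threshold is taken from limma's test over all genes and is a description too. Array probes were taken by gene name, with the older Lass names for the ceramide synthases. By this rule 33 of the 34 genes had a probe (42 probes in all), Cers1 had none, and 27 passed the filter on dim probes, of 20826 genes in the whole series. The embryos were C57/Bl6 mice at embryonic day 11.5, the RNA was taken from the forelimb, and no transgene, mutation or treatment is named for either group. The first group was microdissected apical ectodermal ridge (AER, a thickened strip of epithelium along the limb's distal edge that signals to the mesenchyme beneath it), with 3 arrays, and the second was surface ectoderm of the posterior limb, with 4 arrays. Each array held labelled RNA from a pool of 2 to 3 mice, hybridised with Cy3 in 1 colour to an Agilent mouse array from 75 ng of total RNA. The spread between arrays is therefore a spread between pools.

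Sphingolipids are membrane lipids built on a sphingoid base, which serine palmitoyltransferase makes from serine and a fatty acyl-CoA. Ceramide synthases add a fatty acid to the base, and the resulting ceramide is turned into sphingomyelin or glycosphingolipids, or is broken down to sphingosine and its phosphate, a ligand of G protein-coupled receptors. In skin, ceramides with very long acyl chains later form the water barrier of the epidermis.

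Levels are given as the log2 processed signal of a probe relative to the 75th percentile of its array, so that 0 is the level of that percentile. Differences are AER minus ectoderm on this log2 scale, with the standard error (SE) of limma's fit. A probe counts as above background on an array where the scanner software called its signal well above the local background. Levels of different probes are not compared, since probes bind with different strength.

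Across all genes, 3266 of 20826 (15.7%) passed an adjusted p of 0.05 in limma's moderated test with Benjamini-Hochberg adjustment. Of these, 1464 were higher in AER (7.03% of genes tested) and 1802 were lower (8.65%), so that 44.8% of the calls were higher. With the 75th percentile computed from probes bright enough on all 7 arrays, this share was 57.4%. Between 48.7 and 55.2% of the spots on each AER array, and between 48.9 and 51.1% on each ectoderm array, were well above background. Fgf8, the growth factor that defines the ridge, checked the labels at log2 levels of 5.84, 6.43 and 6.54 on the AER arrays and -2.33, -1.42, 2.20 and -1.40 on the ectoderm arrays. Ectoderm replicate 3 thus had more Fgf8 signal than the other ectoderm arrays. Ectoderm replicates 2 and 4 carry the same sample number in the array records and had the highest correlation of any pair of arrays across genes (r = 0.995). They were kept as separate arrays, as their titles give them, and averaged in an alternative.

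The 2 groups also differed in cell type markers. Of 16 AER genes, 14 of the 15 tested were higher in AER, and Fgf17 was below the filter. Pan-epithelial genes were higher in AER (16 of 20 past the threshold, median log2 difference 1.66), with mean levels of 2.51 to 2.71 in AER and 0.91 to 1.35 in ectoderm. Their summed signal, in multiples of the 75th percentile, ranged from 214 to 234 in AER and from 94.4 to 129 in ectoderm. Limb mesenchyme genes were lower in AER (12 of 15, median -2.19), with summed signals of 239 to 276 in AER and 499 to 781 in ectoderm. Muscle progenitor genes were lower in all 8 members tested, at summed signals of 0.41 to 1.09 in AER and 17.9 to 31.1 in ectoderm. Myf5 was below the filter. Periderm and keratinocyte genes had 4 of 8 members higher and 1 lower (summed signals of 83.7 to 114 in AER and 26.9 to 57.8 in ectoderm), with Krt4 and Krt6a below the filter. Of the neural crest, Schwann and melanoblast markers, 2 of 5 were higher (5.77 to 7.93 in AER and 2.61 to 2.93 in ectoderm), with Erbb3 and Foxd3 below the filter. No endothelial (7), macrophage (6) or erythroid (6) marker passed the threshold, and Cd68 was below the filter. Endothelial summed signals were 11.99 to 18.3 in AER and 14.9 to 19.7 in ectoderm, macrophage ones 10.3 to 17.4 in AER and 13.0 to 16.3 in ectoderm, and erythroid ones were 2303 to 2716 in AER and 2818 to 3623 in ectoderm. The part of these markers in the differences reported here was not tested. In such tissue samples, fewer cells of a type and less RNA per cell cannot be told apart.

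Of the 27 sphingolipid genes that passed the filter, 5 were higher in AER (Smpd3, Sptlc3, Sgms2, Cers3 and Kdsr), 1 was lower (Sphk2), and 21 did not pass the threshold, against 15.7% called over all genes. Smpd3, Sptlc3 and Sgms2 passed the filter through the AER arrays alone (3 of 3 above background in AER and 0 of 4 in ectoderm), which already required a difference. For this reason, and since the list was made with this contrast in view, nothing is read from that count. The median difference of the 27 was 0.04, and that of all genes tested was -0.08. Leaving out the 6 called genes, the other 21 lay between -0.66 and 0.48, with a median of 0.01. Among the 6, Smpd3, Sptlc3 and Sgms2 had the largest differences. By fitted difference these 3 genes, with ectoderm readings at background, were more than 2 log2 units higher, and most of the others lay within 0.5 of 0. With the ectoderm arrays set to the dimmest signal called above background, the bounds were 4.82 for Smpd3, 4.24 for Sptlc3 and 1.33 for Sgms2. In 6 genes every AER array lay above every ectoderm array, and in 4 every AER array lay below, against 12.6% and 17.8% of all genes (30.4% together).

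**Figure D1:**
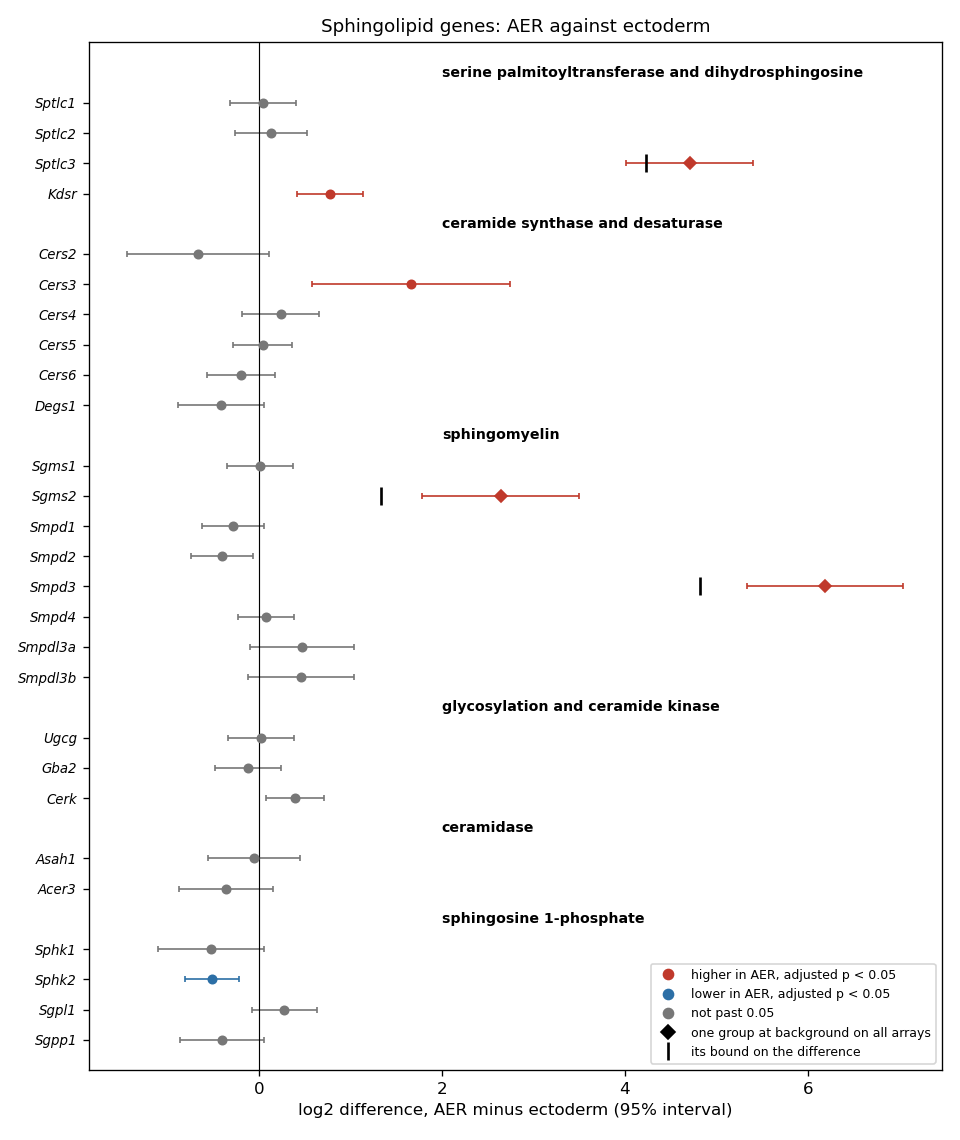
Log2 difference between AER and ectoderm (AER minus ectoderm) for the 27 sphingolipid genes that passed the filter, grouped by step, with the 95% interval of limma's fit. Diamonds mark genes whose ectoderm arrays were all at background, and the upright bar is the bound on their difference (Smpd3 4.82, Sptlc3 4.24, Sgms2 1.33). Smpd3, Sptlc3 and Sgms2 stand apart on the right, and the 21 grey genes did not pass the threshold.

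**Figure D2:**
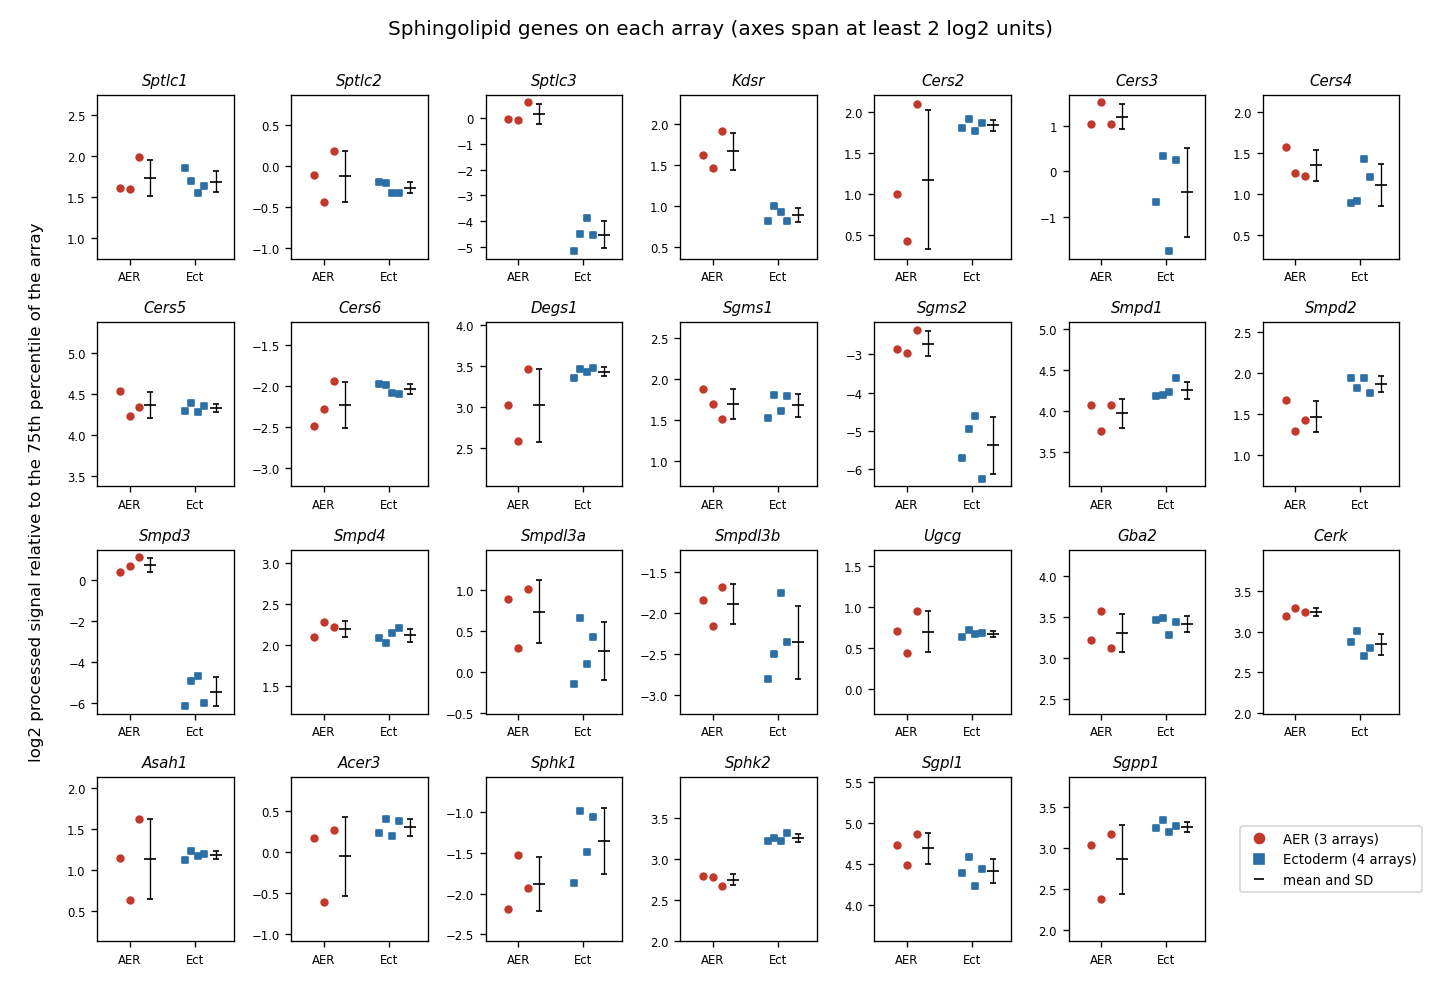
Log2 processed signal relative to the 75th percentile of the array, for each of the 27 genes on the 3 AER arrays (left, circles) and the 4 ectoderm arrays (right, squares), with mean and SD beside the points. Each panel has its own axis of at least 2 log2 units. Smpd3, Sptlc3 and Sgms2 show groups separated by more than 1 unit, and Cers2, Degs1, Asah1 and Sgpp1 show a wider spread over AER than over ectoderm arrays.

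Serine palmitoyltransferase opens the pathway with a shared subunit, Sptlc1, joined to either Sptlc2 or Sptlc3. Sptlc3 is the subunit known to widen the range of fatty acids used. Its bright probe read -0.02, -0.08 and 0.62 on the AER arrays and -5.17, -4.52, -3.88 and -4.55 on the ectoderm arrays. All 3 AER arrays were above background and none of the 4 ectoderm arrays was, so the groups did not overlap. The difference was 4.71 (SE 0.31, 95% interval 4.01 to 5.41). With the ectoderm arrays set to the dimmest signal called above background, the bound was 18.8-fold higher in AER. It is not a strict limit, since signals not called above background can be brighter than that. Under the normexp background correction, which adds an offset and compresses dim signals, the difference was 2.40, and in the authors' processed values it was 2.45.

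A second Sptlc3 probe was not above background on any of the 7 arrays. It begins at base 2699 of the annotated transcript, and the bright probe begins at base 1538. The probes' first 30 of 60 bases are shown because only the first of them carried the AER signal. On the mm9 build the bright probe lies at chr2:139451591-139451650 and the dim probe at chr2:139463351-139463410, both on the plus strand.
Sptlc3 bright probe: actgaaagagatgggattcatcatctatgg
Sptlc3 dim probe: tgaattctgagcacatagtgaaactcaaat

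Sptlc1 and Sptlc2 did not pass the threshold. Sptlc1 read 1.61, 1.598 and 1.98 in AER and 1.86, 1.70, 1.55 and 1.63 in ectoderm, and the difference of 0.05 had a 95% interval of -0.32 to 0.41. Sptlc2, the other catalytic subunit, read -0.11, -0.44 and 0.18 in AER and -0.20, -0.20, -0.32 and -0.32 in ectoderm, with an interval of -0.26 to 0.53. The groups overlapped for both genes. The fitted log2 ratio of Sptlc3 to Sptlc2, the alternative subunits, was thus 4.57 (SE 0.35) higher in AER than in ectoderm. With ectoderm Sptlc3 set to its bound the change was 4.10, a value that a constant scaling of an array leaves as it is.

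Kdsr, the reductase of the next step, read 1.62, 1.47 and 1.91 in AER and 0.82, 0.99, 0.92 and 0.81 in ectoderm. The 3 AER values exceeded the 4 ectoderm values, and the difference of 0.78 (SE 0.16) was 1.72-fold. With each array centred on the pan-epithelial genes the Kdsr difference turned to -0.69. That centring gave a median of -1.56 over all genes. It moves the differences of all genes by the same amount, so the value relative to the median of all genes (0.86 for Kdsr) cannot change with it. Nothing is read from that value about the turned sign. Within slide row 1 the difference was 0.70 and within row 2 it was 0.88, neither past the threshold.

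Ceramide synthases differ in the acyl chain they prefer. Cers3, the synthase of very long-chain ceramides in epidermis and testis, read 1.04, 1.53 and 1.05 on the AER arrays and -0.67, 0.33, -1.76 and 0.26 on the ectoderm arrays. The groups did not overlap, with ectoderm replicates 2 and 4 closest to AER and replicate 3 farthest below it. The difference was 1.66 (SE 0.47, 95% interval 0.58 to 2.74), or 3.17-fold. It lost the threshold when AER replicate 1 (1.75), 2 (1.502) or 3 (1.74) or ectoderm replicate 1 (1.59) was left out. It kept the threshold in 11 of the 22 alternatives, with differences of 1.74 within slide row 1 and 1.03 within row 2, neither past it. Under pan-epithelial centring the Cers3 difference was 0.19 and not past the threshold. The log2 ratio of Cers3 to Cers2 changed by 2.33 (SE 0.75) between AER and ectoderm, that of Cers3 to Cers5 by 1.62 (SE 0.59) and that of Cers3 to Cers4 by 1.42 (SE 0.71).

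The first of the 2 Cers3 probes was not above background on any array. On the mm9 build it lies at chr7:73966654-73966713 and begins at base 1326 of the annotated transcript. The probe behind the values above lies at chr7:73968501-73968560, plus strand, and begins at base 3173. Their first 30 bases are shown to tell the silent probe and the reporting probe apart.
Cers3 silent probe: aaagagacagagtatttgaagaatggcctt
Cers3 reporting probe: aagggttcagtaccatgcgaggtgactttg

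The other synthases did not pass the threshold. Cers2, the widely expressed synthase of very long-chain ceramides, read 1.01, 0.43 and 2.10 in AER and 1.81, 1.92, 1.77 and 1.87 in ectoderm. AER replicate 3 was above every ectoderm array and the other 2 AER arrays were below them all, so the difference of -0.66 had an interval of -1.43 to 0.11. Without AER replicate 3 the difference was past the threshold at -1.12. Cers4, known from skin, averaged 1.35 ± 0.19 in AER and 1.11 ± 0.26 in ectoderm (SD, n = 3 and 4), a difference of 0.24 with an interval of -0.18 to 0.66. Cers5 and Cers6, which both favour palmitoyl-CoA, differed by 0.04 (interval -0.28 to 0.36) and -0.20 (interval -0.57 to 0.18). Degs1, the desaturase that completes ceramide, read 3.02, 2.58 and 3.46 in AER and 3.36, 3.47, 3.42 and 3.48 in ectoderm, a difference of -0.41 with an interval of -0.88 to 0.06. Degs2, the desaturase that also hydroxylates, was not above background on any array.

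**Figure D3:**
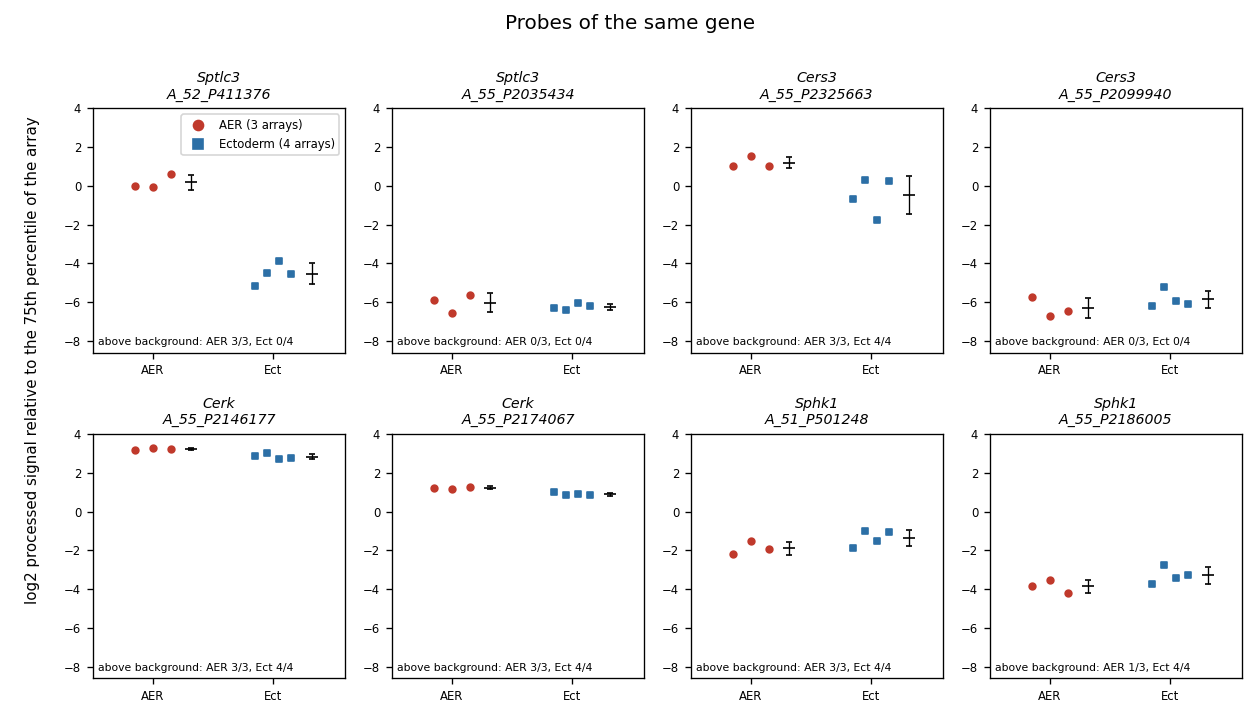
Log2 processed signal relative to the 75th percentile of the array for both probes of Sptlc3, Cers3, Cerk and Sphk1 on the 3 AER arrays (left, circles) and 4 ectoderm arrays (right, squares), with mean and SD. One of the 2 probes of Sptlc3 and one of the 2 of Cers3 stayed at background on all 7 arrays, and both probes of Cerk lay higher on every AER array than on any ectoderm array.

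Sphingomyelin is made from ceramide by the synthases Sgms1 and Sgms2 and returned to ceramide by sphingomyelinases. Smpd3, a membrane-bound neutral sphingomyelinase needed in mouse for mineralisation of bone and cartilage, read 0.41, 0.71 and 1.12 in AER and -6.12, -4.94, -4.70 and -5.99 in ectoderm. Every AER array was above background and every ectoderm array was at background. Its fitted difference was 6.19 (SE 0.37), with ectoderm values that are background readings, and the bound was 28.2-fold higher in AER. The difference was 3.23 under normexp and 3.28 in the authors' values, and it was 5.67 within slide row 1 and 6.91 within row 2. The single Smpd3 probe lies at chr8:108776790-108776849 (mm9, minus strand) and begins at base 4746 of the annotated transcript. Its first 30 bases are shown because it is the only probe of its gene.
Smpd3 probe: tagcgaagtgtactagcttagcaaggacca

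Sgms2, the synthase found at the plasma membrane as well as the Golgi, read -2.87, -2.97 and -2.36 in AER and -5.70, -4.94, -4.62 and -6.25 in ectoderm. Again all AER arrays were above background and no ectoderm array was. The fitted difference was 2.64 (SE 0.38) and the bound 2.52-fold. Under normexp the difference was 0.70 and in the authors' values 0.80, both smaller than the log2 bound of 1.33. Within slide row 1 it was 2.22 and not past the threshold. Its probe is at chr3:131025871-131025930 (mm9, minus strand) and begins at base 1763 of the annotated transcript, and it is the only probe of Sgms2.
Sgms2 probe: taaaatgaagtggaccaaattttatgcaaa

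The paralogues of these genes showed no such separation. Sgms1, the Golgi synthase, read 1.87, 1.69 and 1.503 in AER and 1.51, 1.80, 1.599 and 1.78 in ectoderm, with an interval of -0.34 to 0.37 around a difference of 0.01. The fitted log2 ratio of Sgms2 to Sgms1 was 2.63 (SE 0.51) higher in AER, and 1.32 with ectoderm Sgms2 at its bound. Smpd1, the lysosomal acid sphingomyelinase, read 4.08, 3.76 and 4.07 in AER and 4.19, 4.20, 4.23 and 4.41 in ectoderm. Smpd2, another neutral sphingomyelinase, read 1.66, 1.29 and 1.43 in AER and 1.94, 1.82, 1.94 and 1.75 in ectoderm. For both genes every AER array lay below every ectoderm array, by mean differences of -0.28 (interval -0.62 to 0.06) and -0.40 (interval -0.74 to -0.06) that did not pass the threshold. Under normexp the differences were -0.05 for Smpd1 and -0.13 for Smpd2. In the authors' values they were 0.07 and -0.11, so the sign for Smpd1 was turned there. The neutral sphingomyelinase Smpd4 differed by 0.08 (interval -0.23 to 0.39). The fitted log2 ratio of Smpd3 to Smpd1 was 6.47 (SE 0.49) higher in AER, that to Smpd2 6.59 (SE 0.48) and that to Smpd4 6.11 (SE 0.47). With ectoderm Smpd3 at its bound the same changes were 5.10, 5.22 and 4.74.

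The sphingomyelinase-like phosphodiesterases Smpdl3a and Smpdl3b had differences of 0.48 (interval -0.09 to 1.05) and 0.46 (interval -0.12 to 1.04). Smpdl3a read 0.89, 0.29 and 1.01 in AER and -0.15, 0.66, 0.09 and 0.42 in ectoderm. AER replicate 2 lay among the ectoderm arrays, so the groups overlapped. Under normexp and in the authors' values Smpdl3a was past the threshold.

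The enzymes that glycosylate or phosphorylate ceramide differed little. Ugcg, which makes glucosylceramide, read 0.71, 0.44 and 0.94 in AER and 0.62, 0.71, 0.66 and 0.68 in ectoderm, with an interval of -0.33 to 0.39. Gba2, the glucosylceramidase outside the lysosome, differed by -0.12 (interval -0.48 to 0.25). Ugt8a, which makes galactosylceramide in myelin-forming cells, was not above background on any array. Cerk, the ceramide kinase, read 3.19, 3.29 and 3.23 in AER and 2.87, 3.01, 2.70 and 2.80 in ectoderm, a difference of 0.40 (interval 0.08 to 0.71). Its second probe read 1.25, 1.15 and 1.29 in AER and 1.01, 0.84, 0.91 and 0.87 in ectoderm. Both Cerk probes thus separated the groups, although the difference did not pass the threshold over all genes. It was past it in 6 of the 22 alternatives, and in the one centred on pan-epithelial genes its sign was turned (-1.07).

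Ceramidases release sphingosine from ceramide. Asah1, the lysosomal acid ceramidase, read 1.15, 0.63 and 1.61 in AER and 1.12, 1.23, 1.17 and 1.19 in ectoderm. The AER arrays spread on both sides of the ectoderm arrays, and the difference was -0.05 (interval -0.56 to 0.46). A second Asah1 probe averaged -0.96 in AER and -1.21 in ectoderm, so the probes disagreed in sign. Acer3, an alkaline ceramidase, read 0.18, -0.61 and 0.27 in AER and 0.23, 0.41, 0.20 and 0.38 in ectoderm. AER replicate 2 set most of its mean difference of -0.36 (interval -0.87 to 0.15). The epidermal ceramidase Acer1 and the Golgi ceramidase Acer2 were not above background on any array. The neutral ceramidase Asah2 was above background on 1 AER array for each of its probes and on 1 ectoderm array for the second, and it did not pass the filter. Its probes ranged from -4.66 to -4.23 in AER and from -5.61 to -3.95 in ectoderm.

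Sphingosine is phosphorylated by Sphk1 and Sphk2, and the phosphate is removed by the phosphatases Sgpp1 and Sgpp2 or cleaved for good by the lyase Sgpl1. Sphk2, the kinase known from nucleus and mitochondria, read 2.79, 2.78 and 2.67 in AER and 3.23, 3.26, 3.23 and 3.32 in ectoderm. Every AER array lay below every ectoderm array, and the difference was -0.51 (SE 0.13), or 1.42-fold lower in AER. This call held in 6 of the 22 alternatives. Among the 6 was the centring on pan-epithelial genes, where 19343 of all 20826 genes were called lower. The call was lost when AER replicate 1 (-0.53) or 3 (-0.47) or ectoderm replicate 1 (-0.52), 2 (-0.51), 3 (-0.52) or 4 (-0.49) was left out, and the difference was -0.24 under normexp and -0.17 in the authors' values. It was also lost within either slide row, with the row as a block, without a filter and with ectoderm replicates 2 and 4 averaged, among others. Sphk1, the cytosolic kinase, read -2.18, -1.53 and -1.93 in AER and -1.87, -0.998, -1.49 and -1.07 in ectoderm. The groups overlapped, with a difference of -0.52 (interval -1.10 to 0.05), and the log2 ratio of Sphk1 to Sphk2 changed by -0.01 (SE 0.27).

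Sgpp1 read 3.03, 2.38 and 3.17 in AER and 3.24, 3.34, 3.19 and 3.26 in ectoderm. All AER arrays lay below the ectoderm arrays, replicate 2 far below and the others close to them, and the difference of -0.40 had an interval of -0.86 to 0.06. Sgpl1 read 4.73, 4.48 and 4.86 in AER and 4.39, 4.58, 4.23 and 4.43 in ectoderm, a difference of 0.28 (interval -0.08 to 0.64). Sgpp2 was not above background on any array for either of its probes.

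The spread between arrays was larger in AER for 19 of the 27 genes, against 69.4% of all genes. The median SD over the 27 genes was 0.25 in AER and 0.10 in ectoderm, and over all genes it was 0.30 in AER and 0.19 in ectoderm. AER replicate 2 was the lowest AER array for 17 of the 27 genes, against 48.7% of all genes, and replicate 3 was the highest for 16. Sphk2 (SD 0.07) and Cerk (SD 0.05) were among the genes with the AER arrays close together, and Cers2 (SD 0.85) among those with the AER arrays far apart.

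Centring the arrays on the 20 pan-epithelial genes moved every difference down together. In that scaling the bounds on Smpd3 (3.35) and Sptlc3 (2.76) stayed above 0. The bound on Sgms2 was -0.14, so the sign of its fitted 1.17 there rests on ectoderm readings at background. In the same scaling 23 of the 27 sphingolipid genes were called lower, as were 19343 of all 20826 genes, so nothing is read from that count. The fitted values of the 6 called genes under all alternatives are drawn by setting.

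**Figure D4:**
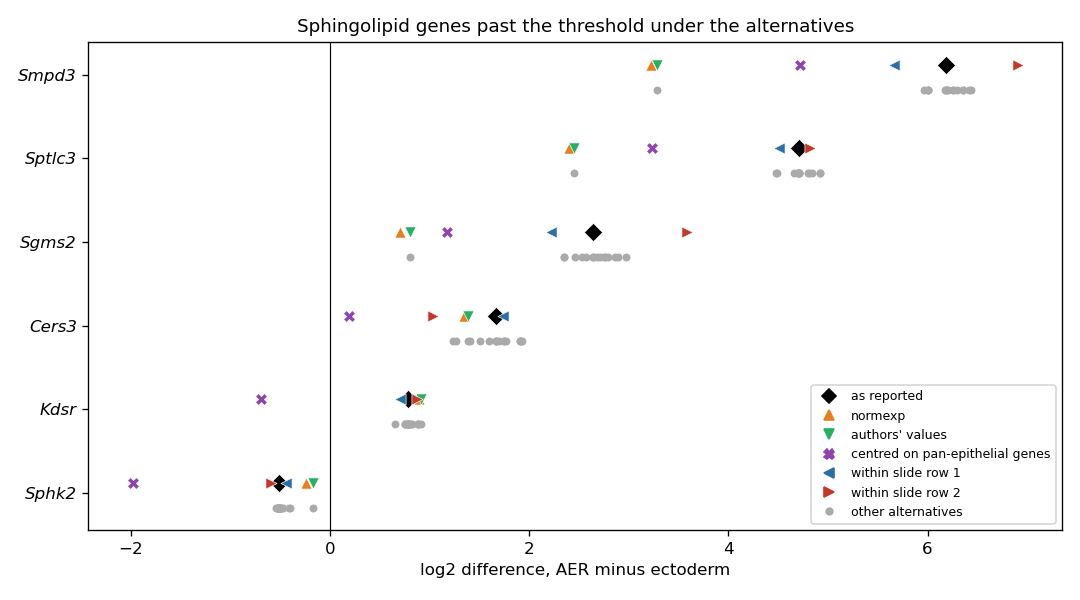
Log2 difference (AER minus ectoderm) of the 6 sphingolipid genes past the threshold under each setting. Black diamonds are the reported values, coloured symbols the alternatives named in the legend, and grey points the remaining ones. The fitted values of Smpd3, Sptlc3 and Sgms2 are positive in all of them, though the bound on Sgms2 is -0.14 when centred on pan-epithelial genes. Cers3 comes near 0 (0.19) and Kdsr turns negative (-0.69) when centred on pan-epithelial genes, and Sphk2 is negative throughout.

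Promoter windows of 250 bases before the annotated start (RefSeq, GRCm38.p6) were given for 31 of the 34 genes, with 46 windows in all. The GC box GGGCGG, searched on both strands, occurred in 23 of these windows and in 20 genes, against 32.7% of 32851 windows of all genes. The single windows of Sptlc3 and Cers3 held none, those of Sptlc2 and Cers5 held 2 each, and that of Kdsr held 3. Among genes that did not pass the threshold, the windows of Cers6, Cerk, Degs1, Sgpp1, Smpd4 and Smpdl3b held none either, nor did any window of Sphk1. Lack of the motif was thus not particular to the higher genes. Sgms2 had 6 windows, of which 2 held the motif. The number of CpG dinucleotides was 1 for Sptlc3, 6 for Cers3, 19 for Kdsr and 1 to 36 over the windows of Sgms2, and 11 for Sptlc2 and 16 for Cers5, where the median over all windows was 6 (quartiles 2 and 16). A match or its lack describes these letters and not a binding site. The 4 windows below set Sptlc3 and Cers3, 2 of the 5 higher genes, each beside a paralogue whose difference did not pass the threshold, with GC boxes on either strand in capitals. On GRCm38.p6 they are chr2:139493663-139493912 (plus strand) for Sptlc3, chr12:87388356-87388605 (minus) for Sptlc2, chr7:66743254-66743503 (plus) for Cers3 and chr15:99772516-99772765 (minus) for Cers5.
Sptlc3: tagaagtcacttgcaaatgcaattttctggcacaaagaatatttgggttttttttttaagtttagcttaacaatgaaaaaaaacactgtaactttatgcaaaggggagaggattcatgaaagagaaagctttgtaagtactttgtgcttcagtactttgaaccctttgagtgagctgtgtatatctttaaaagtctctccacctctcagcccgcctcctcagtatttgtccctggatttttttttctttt
Sptlc2: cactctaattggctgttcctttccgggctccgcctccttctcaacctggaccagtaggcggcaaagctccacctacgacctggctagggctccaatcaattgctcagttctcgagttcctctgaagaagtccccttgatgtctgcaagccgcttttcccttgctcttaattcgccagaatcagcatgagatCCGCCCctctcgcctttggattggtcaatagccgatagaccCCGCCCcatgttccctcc
Cers3: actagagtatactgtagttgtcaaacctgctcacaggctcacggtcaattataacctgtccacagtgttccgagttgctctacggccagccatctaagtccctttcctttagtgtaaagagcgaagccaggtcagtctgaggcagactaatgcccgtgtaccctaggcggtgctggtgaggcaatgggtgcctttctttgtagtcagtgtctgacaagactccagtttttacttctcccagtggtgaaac
Cers5: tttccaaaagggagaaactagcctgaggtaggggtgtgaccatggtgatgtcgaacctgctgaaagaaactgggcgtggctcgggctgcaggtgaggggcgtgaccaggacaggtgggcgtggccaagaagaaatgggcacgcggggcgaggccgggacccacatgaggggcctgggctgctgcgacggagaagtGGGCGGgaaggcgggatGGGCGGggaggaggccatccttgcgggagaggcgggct

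The rest of the pathway was followed in 48 further genes listed by role and reported here. All had a probe and 40 passed the filter. Of these, 8 fell in AER relative to ectoderm and none rose, where 8.65% of all genes were lower and 7.03% higher. The median difference was -0.15, and -0.08 over all genes. At an unadjusted p under 0.05, limma's fit gave 13 lower and 1 higher, against 17.5% lower and 13.1% higher over all genes. The lists were made with earlier results of these arrays known, so nothing is read from these counts. The count past the threshold was 5 without ectoderm replicate 4 and 5 under normexp, and within slide row 1 it was 0 and within row 2 it was 2.

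In glycosphingolipid synthesis 6 of the 10 members were lower and none higher, with a median difference of -0.63, against 8.65% of all genes lower and a median of -0.08. As this list too was made with earlier results known, the count is a description and nothing is read from it about the step. The count also depends on the probe chosen. The second kept probes of the called genes B4galt6 (-0.14) and B3gnt5 (-0.30) overlapped between the groups, and that of B3galt4 (-0.70) did not. With the mean of all kept probes per gene, 6 of the other pathway genes passed the threshold instead of 8. Gal3st1, the sulfotransferase that makes sulfatide, read -4.51, -5.18 and -5.29 in AER and -2.88, -2.77, -3.27 and -2.65 in ectoderm. No AER array and all ectoderm arrays were above background, so it passed the filter through the ectoderm arrays alone, and its bound was 3.49-fold lower in AER. The fitted difference was -2.10 with AER readings at background, -0.67 under normexp and -0.56 in the authors' values. B3galnt1, which makes globoside, fell by 1.07 (SE 0.16, adjusted p = 0.00236 in limma), with 0.98, 0.49 and 0.79 in AER and 1.90, 1.90, 1.72 and 1.78 in ectoderm. B4galt5, a lactosylceramide synthase, fell by 1.02 (SE 0.19, adjusted p = 0.00781 in limma), with 2.52, 2.00 and 2.71 in AER and 3.46, 3.54, 3.26 and 3.46 in ectoderm. These 3 genes were lower in AER under every alternative in which they were tested, and all AER arrays lay below all ectoderm arrays. St3gal5, which makes the simplest ganglioside, did not pass the threshold (-0.47, adjusted p = 0.146 in limma). Summed limb mesenchyme and muscle progenitor signals were lower on the same AER arrays, and their part in these differences was not tested.

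Among the transporters and receptors of sphingosine 1-phosphate, 2 of 6 genes fell and none rose in limma's fit, against 8.65% lower and 7.03% higher over all genes. At an unadjusted p under 0.05 the counts were the same, against 17.5% lower and 13.1% higher over all genes. Nothing is read from these counts either. S1pr3, one of its receptors, read 2.83, 2.44 and 2.64 in AER and 4.23, 4.67, 3.78 and 4.84 in ectoderm, a fall of 3.35-fold (difference -1.74, SE 0.26, adjusted p = 0.00232 in limma). S1pr2 read 1.501, 1.02 and 1.53 in AER and 2.13, 2.27, 1.92 and 2.24 in ectoderm (difference -0.79, SE 0.18, adjusted p = 0.0187 in limma). The groups did not overlap for either receptor. The S1pr2 call held in 11 of the 22 alternatives, the centring on pan-epithelial genes being 1 of them. The call was lost without ectoderm replicate 2 (-0.75) or 4 (-0.76), under normexp (-0.52) and in the authors' values (-0.49), among others. The transporter Mfsd2b differed by 0.15 (adjusted p = 0.629 in limma), and was past the threshold as higher in AER (0.56) in the authors' values and under normexp with quantile normalization.

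None of the 9 further genes of sphingolipid breakdown tested and reported here passed the threshold in limma, and none did at an unadjusted p under 0.05. The alpha-galactosidase Gla differed by -0.16 (adjusted p = 0.618 in limma). None of the 4 regulators of serine palmitoyltransferase tested passed the threshold, with Ormdl3, an inhibitor of the enzyme, at -0.03 (adjusted p = 0.915 in limma). None of the 5 tested genes of ceramide and glycolipid transfer and other sphingomyelin roles did (2 were lower at an unadjusted p under 0.05). Of these, the ceramide 1-phosphate carrier Cptp was at -0.20 (adjusted p = 0.363 in limma). Of the genes that make the acylceramides of the later epidermal barrier, 6 of 9 were tested and none passed the threshold (1 higher and 1 lower at an unadjusted p under 0.05), with the fatty acid elongase Elovl1 at -0.01 (adjusted p = 0.973 in limma).

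**Figure D5:**
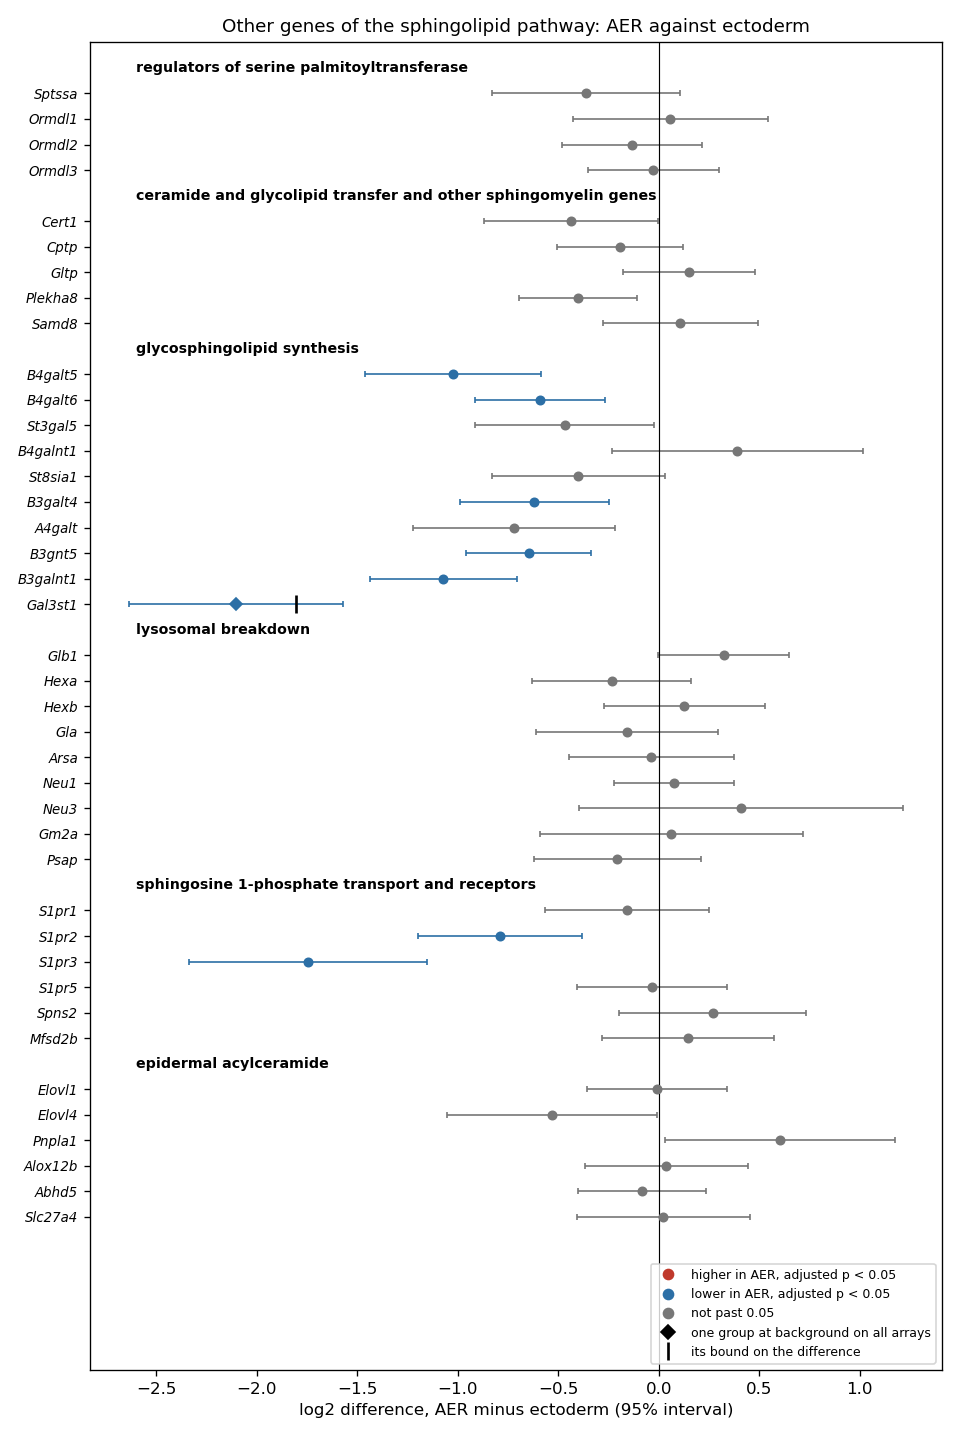
Log2 difference (AER minus ectoderm) with 95% interval for the 40 further pathway genes that passed the filter, by role. The 6 called glycosphingolipid genes and 2 receptors lie to the left in blue, and the diamond marks Gal3st1, whose AER arrays were all at background (bound -1.80).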

How the data were processed

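Per the file headers, Agilent Feature Extraction 10.7.3.1 gave each deposited array file its processed signal, an intensity on a linear scale that is background-subtracted and detrended without scaling between arrays. Those deposited files also give the mean intensity of each spot, the local background intensity and other columns of quality flags. The authors also deposited log2 values, and limma is named in the submitters' processing notes with no step. Those log2 values were within 0.0309 of normexp (offset 50) plus quantile normalization.

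Control and outlying spots (of 62976 spots, 59305 were no controls) were left out. Spots of the same probe were averaged, for each of the 55681 probes, and each array's log2 75th percentile was subtracted. A probe was kept if well above background on at least 3 of 7 arrays (28280 probes, 50.8%), and the kept probe with the highest mean stood for its gene. No spot was saturated. The number of arrays limits the precision.

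Groups were compared with limma 3.58.1 in R 4.3.3 (data.table, version 1.17.8), with group as the only term, 5 residual and 3.50 prior degrees of freedom and Benjamini-Hochberg adjustment over 20826 genes, two-sided at 0.05. It was tested on simulated data. For a group at background on all arrays, the bound sets each of its arrays to the dimmest signal called above background there, or to the probe's own signal where that was higher. Signals not called above background can lie above that level, so the bound is not a strict limit. The SE of a ratio between 2 genes is pooled from the spread over the arrays within each group, without limma's moderation and without a test. For ratios of Sptlc3, Sgms2 and Smpd3 it includes ectoderm readings at background. All arrays shared 1 slide and 1 scan time, with AER replicate 1 and ectoderm replicates 1 to 3 in row 1 and the others in row 2. Whether pools shared litters is not given in the sources used here.

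Members and lists were chosen with earlier results of these data known. Some listed genes are not reported here. Every sphingolipid gene above background on any array is named. Of the other pathway genes, each role names up to 3 with the smallest p past the threshold and 1 with the highest mean not past it. B4galt6, B3gnt5 and B3galt4 are named besides for their second probes. RefSeq accessions named 26259 of the probes, current symbols 2043 and older symbols 355, and 26982 have the array file's own name. Positions refer to mm9, and the exon or transcript region under them was not looked up. The 22 alternatives covered background correction, scaling, filter, probe choice, slide row, arrays of a shared number, array weights, the replicate block and each array left out. Python 3.11.15, pandas 2.3.3, numpy 2.4.6 and matplotlib 3.10.9 were used.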

Additional observations from a re-analysis of the deposited data

How the results depend on the processing

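All counts past the threshold refer to limma's adjusted p. Over all genes the count of 3266 was 19603 when centred on pan-epithelial genes (260 higher), 653 within slide row 1 and 1390 within row 2, where the lone AER or ectoderm array is assumed to vary like the others. It ranged from 2199 to 3275 with 1 array left out. The 6 sphingolipid genes past the threshold became 26 when centred on pan-epithelial genes, 3 when probes had to be above background on all arrays (fewer genes tested), 2 within row 1 and 3 within row 2, and ranged from 4 to 5 with 1 array left out. The 8 other pathway genes became 40 under that centring, 5 under normexp, 4 without a filter, 4 with the slide row as a block, 0 within row 1, 2 within row 2, 5 with ectoderm replicates 2 and 4 averaged, and between 5 and 9 with 1 array left out.

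The called difference of Kdsr turned to -0.69 under pan-epithelial centring. Uncalled ones near 0 also turned. Among the sphingolipid genes, with that centring left out, Sgms1 ranged from -0.187 to 0.232 and Asah1 from -0.294 to 0.2. Each kept its sign in 15 of all 22 alternatives. Sptlc1, Sptlc2, Cers5, Cers6, Smpd1, Ugcg and Gba2 also turned in some alternatives other than that centring. Other pathway genes turned too. Ormdl3 was 0.177 under normexp, 0.295 under normexp with quantile normalization and in the authors' values, 0.108 under quantile normalization, 0.078 with the percentile over the brighter probes, 0.021 with the row as a block and 0.169 within row 1, and ranged from -0.121 to 0.046 with 1 array left out. In these settings Elovl1 was 0.222, 0.343, 0.343, 0.154, 0.095, 0.042 and 0.240, and it was 0.001 with the mean of kept probes, 0.033 with array weights, 0.009 with the replicate block and -0.125 to 0.107 with 1 array left out. Gla was 0.192 under quantile normalization, 0.024 within row 1, 0.016 with array weights and -0.270 to 0.053 with 1 array left out. Cptp was 0.004 in the authors' values and under normexp with quantile normalization. Mfsd2b was 0.558, past the threshold, in the authors' values and under normexp with quantile normalization, -1.327 under pan-epithelial centring, -0.055 with the mean of kept probes and -0.034 to 0.273 with 1 array left out. The call was lost in 16 of 22 alternatives for Sphk2, 11 of 22 for Cers3, 3 of 22 for Kdsr and 1 of 21 for Sgms2; the cause was not tested.

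Whether array numbers pair the samples is not known. Same-numbered AER and ectoderm arrays had deviations correlated at -0.031, 0.194 and 0.132 across genes, and differently numbered ones ranged from -0.261 to 0.182. With so few arrays these values cannot decide it. With the replicate block, 2444 genes, 4 sphingolipid genes and 4 other pathway genes passed the threshold. Signal over background limits Smpd3, Sptlc3, Sgms2 and Gal3st1 to bounds.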
